A study of Mus musculus with 10 samples.

Results

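The Krüppel-like factors are DNA-binding proteins with zinc fingers, and 10 of their genes, Klf2, Klf3, Klf4, Klf5, Klf6, Klf7, Klf9, Klf10, Klf13 and Klf15, were followed in 3T3-L1 cells, a mouse line of preadipocytes that can be turned into fat cells in culture. Every probe set whose platform symbol was one of these genes was taken, which gave 34 of 45037 probe sets and 10 of 18193 genes. The cells received a double-stranded siRNA against LSD1, the histone demethylase encoded by Kdm1a (siLsd1), or a scrambled siRNA (siC), at 60 nM in every group, and total RNA was hybridised to 10 Affymetrix arrays. The groups were siLsd1 at 48 h and siC at 48 h, with 3 arrays each and cells of passage 21, and siLsd1 at 24 h and siC at 24 h, with 2 arrays each and cells of passage 19. All cells were undifferentiated, of 1 cell line, kept in calf serum, and the medium was not changed after transfection. Replicates are biological per the labels, and the spread among them is what each p-value rests on.

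Krüppel-like factors bind CACCC boxes and GC-rich boxes in promoters, where some activate and others repress transcription by recruiting corepressors. In preadipocytes they are known as a relay around the C/EBP factors and PPARγ, the regulators that drive fat cell formation. Klf4, Klf5, Klf6, Klf9 and Klf15 are known to favour differentiation, Klf2, Klf3 and Klf7 to restrain it, and Klf10 is an early gene induced by TGF-β.

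RefSeq promoter windows of build GRCm38.p6, from 250 bases before the start site to 50 after it, matched 8 of the 10 genes. The 4 shown belong to Klf4, Klf6 and Klf2, the members with a window that were called with siLsd1 over the mean of both times, and to Klf9, whose called fall between the times was the largest of the members under both siRNAs. Capitals mark the CACCC box and the GC box GGGCGG on either strand. They lie at chr4:55532426-55532725 on the minus strand for Klf4, and on the plus strand at chr13:5861239-5861538 for Klf6, chr8:72318812-72319111 for Klf2 and chr19:23140976-23141275 for Klf9.
Klf4: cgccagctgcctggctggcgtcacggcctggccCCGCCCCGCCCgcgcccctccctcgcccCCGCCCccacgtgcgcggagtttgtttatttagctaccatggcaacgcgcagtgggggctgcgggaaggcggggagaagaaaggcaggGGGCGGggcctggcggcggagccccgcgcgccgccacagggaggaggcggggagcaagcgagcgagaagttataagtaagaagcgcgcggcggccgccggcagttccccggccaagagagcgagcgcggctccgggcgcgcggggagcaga
Klf6: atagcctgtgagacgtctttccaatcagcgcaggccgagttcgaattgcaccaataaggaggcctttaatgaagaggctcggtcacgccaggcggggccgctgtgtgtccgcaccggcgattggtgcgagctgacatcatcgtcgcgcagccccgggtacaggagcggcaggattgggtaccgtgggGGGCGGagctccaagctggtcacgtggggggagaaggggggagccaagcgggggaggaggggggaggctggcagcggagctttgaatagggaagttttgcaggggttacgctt
Klf2: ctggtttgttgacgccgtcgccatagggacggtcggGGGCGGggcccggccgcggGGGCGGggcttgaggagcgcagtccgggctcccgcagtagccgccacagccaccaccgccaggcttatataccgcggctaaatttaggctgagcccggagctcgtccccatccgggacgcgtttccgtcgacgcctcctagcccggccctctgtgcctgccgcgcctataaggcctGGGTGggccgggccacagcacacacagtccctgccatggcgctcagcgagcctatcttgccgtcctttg
Klf9: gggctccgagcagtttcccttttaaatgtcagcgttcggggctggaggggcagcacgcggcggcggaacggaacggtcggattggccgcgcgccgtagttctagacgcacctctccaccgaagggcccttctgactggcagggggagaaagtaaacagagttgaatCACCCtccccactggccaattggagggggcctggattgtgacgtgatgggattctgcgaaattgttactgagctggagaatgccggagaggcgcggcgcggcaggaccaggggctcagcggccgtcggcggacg
The Klf4 window held 4 GC boxes and 0 CACCC boxes, the Klf6 window 1 and 0, and the Klf2 window 2 and 1. The Klf9 window held 0 GC boxes and 1 CACCC box, TGACGT, the core of the cAMP response element, at 46 bases before the start site, and TGANTCA, the AP-1 site, at 89 before it. The last 2 letters of this AP-1 site are the first 2 of the CACCC box. Searched on both strands, CACCC was in 57.5% of all 32851 windows, GGGCGG in 35.7%, TGACGT in 7.51% and TGANTCA in 7.81%. The GC box stood at 3 or more places in 10.7% of windows. Of the members not shown, Klf3 held the most boxes, 5 CACCC and 6 GC, where 1.02% of all windows held 5 or more CACCC boxes and 2.71% held 5 or more GC boxes. The Klf3 window was 76.7% G and C, against a median of 52.7% over all windows, and these shares do not allow for that. A single CACCC box was common among all windows, and these matches describe letters only.

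Kdm1a was the check of the labels. Its brighter probe set read 1001 and 971 intensity units with siLsd1 at 24 h, against 1559 and 1621 with siC at 24 h. At 48 h it read 1352, 1336 and 897 with siLsd1, against 1596, 1787 and 1775 with siC. Every siLsd1 array was below every siC array, with a log2 change of -0.69 at 24 h (adjusted p = 0.0473) and -0.55 at 48 h (adjusted p = 0.0338). Array medians lay between 35.6 and 40.6 units, and precision is limited by how few arrays there were. Without siLsd1 48 h replicate 3, described next, the Kdm1a change at 48 h was -0.35 (adjusted p = 0.00277). Leaving out any other array than a siLsd1 array of 48 h ended the Kdm1a call at both times.

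One array stood apart. Over genes with a mean of at least 8 on the log2 scale, siLsd1 48 h replicate 3 differed from its own replicates by 0.444 to 0.448 (root mean square of the log2 difference), against 0.0897 to 0.217 within groups elsewhere. It differed from the siLsd1 24 h arrays by 0.359 to 0.363. Results are therefore given with and without this array.

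**Figure D1:**
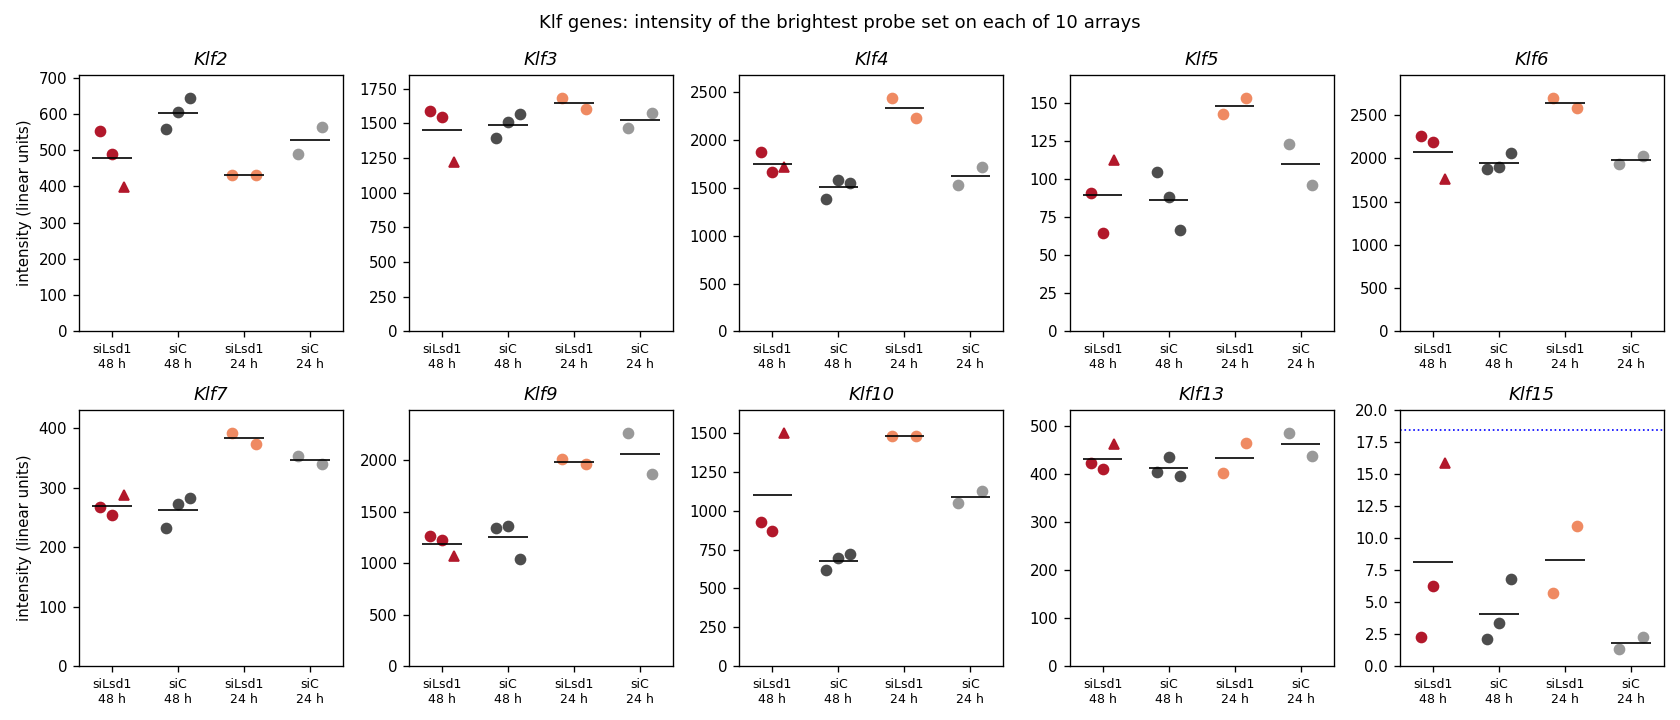
Intensity (linear units) of the brightest probe set of each of 10 Klf genes on each of 10 arrays, siLsd1 and siC at 48 h to the left and at 24 h to the right; black lines are group means, the triangle is siLsd1 48 h replicate 3 and the dotted blue line in the Klf15 panel is the dim level of 18.4. Klf4, Klf6 and Klf10 are highest with siLsd1 at 24 h, apart from the triangle of Klf10, and Klf9 is lower at 48 h under both siRNAs.

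The first comparison asked which members differed between siLsd1 and siC at 24 h. The call needed an adjusted p under 0.05 from limma, with Benjamini-Hochberg adjustment over 13644 genes, and 9 of 10 members were bright enough to be tested. Klf4 was called, higher with siLsd1, against a background of 5.39% of all genes called and 2.60% called higher. It is a zinc finger factor that binds the Cebpb promoter early in differentiation. Its intensity was 2438 and 2234 with siLsd1 at 24 h, against 1533 and 1718 with siC at 24 h. The groups did not overlap, and Klf4 rose by 0.52 on the log2 scale (SE 0.10), a 1.44-fold difference with an adjusted p of 0.0193. Its second probe set read 2167 and 2061 against 1526 and 1469, and both were called in a fit over all 45037 probe sets, of which 1.25% were called. The Klf4 call was lost when any of the 4 arrays of that time was left out (log2 0.44 to 0.61, adjusted p 0.0755 to 0.198). Calls were then fewer over all genes too, with 0.315% called without siC 24 h replicate 1, against 5.39% with all arrays.

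Klf6, which represses the preadipocyte gene Dlk1, read 2694 and 2575 with siLsd1 at 24 h, against 1933 and 2031 with siC at 24 h. Again no arrays overlapped, but the log2 change of 0.41 (SE 0.12) had an adjusted p of 0.0695 and was not called. All 5 probe sets of Klf6 had positive changes at 24 h, between 0.38 and 0.69. Among these, the second brightest read 2906 and 2663 with siLsd1 against 2255 and 1398 with siC, so that siC replicate 2 was the lowest array of that time. The same probe set was also low on siLsd1 48 h replicate 3, at 1262, and on siC 48 h replicate 3, at 1263, against 2171 to 2286 on the other 48 h arrays.

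Klf10, a TGF-β-induced early gene, read 1482 and 1479 with siLsd1 at 24 h, against 1051 and 1127 with siC at 24 h. The log2 change was 0.44 (SE 0.21, adjusted p = 0.255), with no overlap between the groups and no call. Klf5, an activator of Pparg, read 143 and 153 with siLsd1 against 123 and 96.5 with siC (log2 0.44, adjusted p = 0.378). Its groups did not overlap either, and its interval ran from -0.17 to 1.05.

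Klf2, which inhibits Pparg, read 431 on both siLsd1 arrays at 24 h, against 490 and 564 on the siC arrays. It was lower without overlap, by a log2 change of -0.29 (SE 0.15, adjusted p = 0.299). Klf3, a CtBP-binding repressor of Cebpa, read 1683 and 1607 with siLsd1 against 1471 and 1578 with siC, and Klf7 read 392 and 374 against 353 and 340. Both were higher without overlap, by log2 0.11 and 0.14, and neither was called. Klf9 and Klf13 overlapped, with changes of -0.05 and -0.09. In all, 6 members were higher without overlap and 1 was lower, against 27.5% and 33.9% of all genes.

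When siLsd1 48 h replicate 3 was left out of the fit, the 24 h changes stayed as they were and their errors shrank. Klf4 (adjusted p = 0.00138), Klf6 (0.000709) and Klf10 (0.00225) were then called, where 25.5% of all genes were called.

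At 48 h the call fell on Klf10, against a background of 12.7% of all genes called and 6.00% called higher. Its intensity was 927, 871 and 1500 with siLsd1 at 48 h, against 621, 694 and 724 with siC at 48 h. The siLsd1 arrays were all above the siC arrays, and replicate 3 was the highest of them. Klf10 rose by 0.65 on the log2 scale (SE 0.17), 1.57-fold with an adjusted p of 0.0384. Without replicate 3 it rose by 0.41, 1.33-fold with an adjusted p of 0.00358. The call was lost without any 1 of the 4 arrays of 24 h or of the 3 siC arrays of 48 h (adjusted p 0.0620 to 0.114).

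Klf4 read 1871, 1664 and 1714 with siLsd1 at 48 h, against 1388, 1580 and 1552 with siC at 48 h. The groups did not overlap, and the log2 change of 0.22 (SE 0.08) was not called (adjusted p = 0.104). Klf2 read 552, 488 and 397 with siLsd1 against 558, 604 and 643 with siC, again without overlap. Its log2 change was -0.34 (SE 0.12, adjusted p = 0.0927), and replicate 3 was its lowest array. In all, 2 members were higher without overlap, against 16.6% of all genes, and 1 was lower, against 20.9%.

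Klf6 read 2255, 2193 and 1759 with siLsd1 at 48 h, against 1879, 1896 and 2063 with siC at 48 h. Replicate 3 was the lowest of these 6 arrays, and the log2 change was 0.08 (adjusted p = 0.598). Without it the change was 0.19 (adjusted p = 0.0358) and Klf6 was called, where 18.1% of all genes were. Klf3, Klf5, Klf7, Klf9 and Klf13 overlapped at 48 h, with log2 changes from -0.07 to 0.07.

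**Figure D2:**
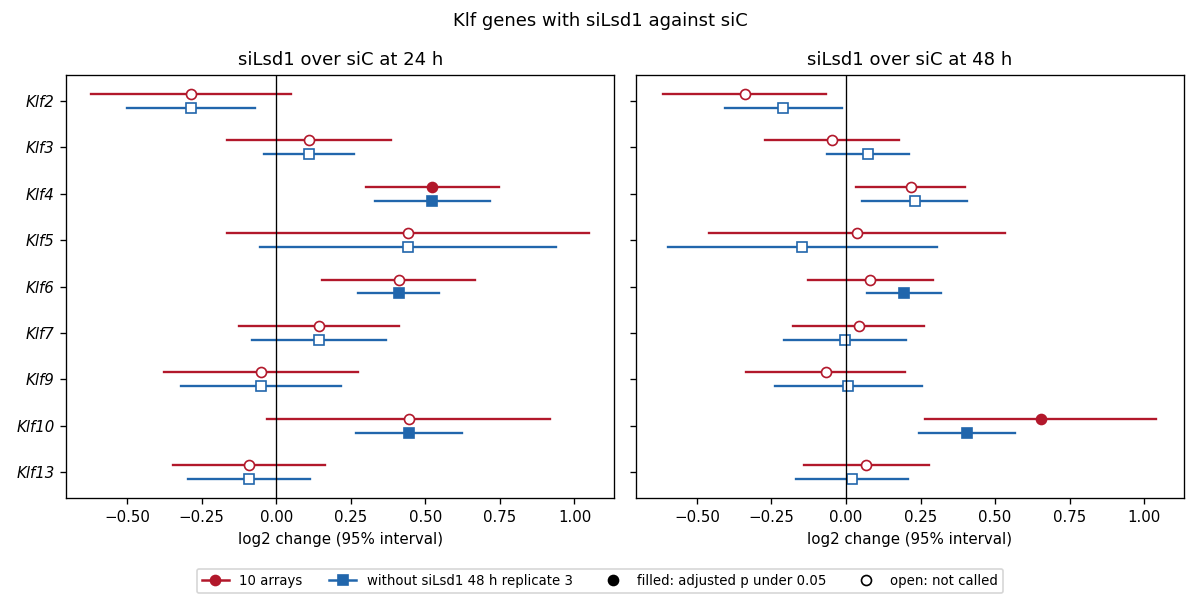
Log2 change of each tested Klf gene with siLsd1 against siC at 24 h (left) and 48 h (right), with 95% intervals; red circles use 10 arrays, blue squares leave out siLsd1 48 h replicate 3, and filled symbols are called. Klf4 at 24 h (0.52) and Klf10 at 48 h (0.65) are filled with all arrays, and Klf6 and Klf10 are filled at both times without replicate 3.

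Over the mean of both times, 4 members were called, against 23.8% of all genes, with 10.1% called higher and 13.7% called lower. Klf4 rose by 0.37 (SE 0.06, adjusted p = 0.00434), Klf10 by 0.55 (SE 0.14, adjusted p = 0.0188) and Klf6 by 0.25 (SE 0.07, adjusted p = 0.0386) on the log2 scale. Klf2 fell by 0.31 (SE 0.10, adjusted p = 0.0425). Thus 3 genes rose and the Pparg inhibitor Klf2 fell. No member had all 5 siLsd1 arrays above or below all 5 siC arrays, which 3.51% and 5.24% of all genes had. Without siLsd1 48 h replicate 3 the same 4 were called, where 33.8% of all genes were. Leaving out 1 array of 24 h left the call of Klf4 alone, and leaving out any array of 48 h other than siLsd1 replicate 3 ended the call of Klf2, of Klf6 or of both. These losses stand without a share of all genes and alone do not set the Klf genes apart.

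The siLsd1 change did not pass the test for a difference between the times for any member, and limma called 0 of 13644 genes. At an unadjusted p under 0.05 there were 896 genes and 1 member, Klf4. Its difference, the change at 48 h minus that at 24 h, was -0.31 (adjusted p = 0.725). The interval for Klf4 ran from -0.60 to -0.02 and that for Klf10 from -0.40 to 0.82. Without siLsd1 48 h replicate 3, 201 genes and 0 members were called.

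Different probe sets of a gene did not always move alike. Of 30 member probe sets above the dim level, 21 had a positive siLsd1 change at 24 h and 14 at 48 h. Over all probe sets, 0 were called at 48 h, where 3.36% of all were, and 3 for the mean of both times, where 8.66% were. The 6 such probe sets of Klf3 ran from -0.37 to 0.29 at 24 h and from -0.50 to -0.03 at 48 h. Those of Klf7, 4 in number, ran from 0.03 to 0.54 at 24 h and from -0.37 to 0.04 at 48 h. The largest standard errors at 24 h were those of the dimmest of these Klf3 probe sets (0.45), of a Klf6 probe set of 175 to 575 units (0.43) and of the dimmest Klf13 probe set (0.43), which read 21.5 and 24.0 with siLsd1 at 24 h, against 20.6 and 7.49 with siC.

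**Figure D3:**
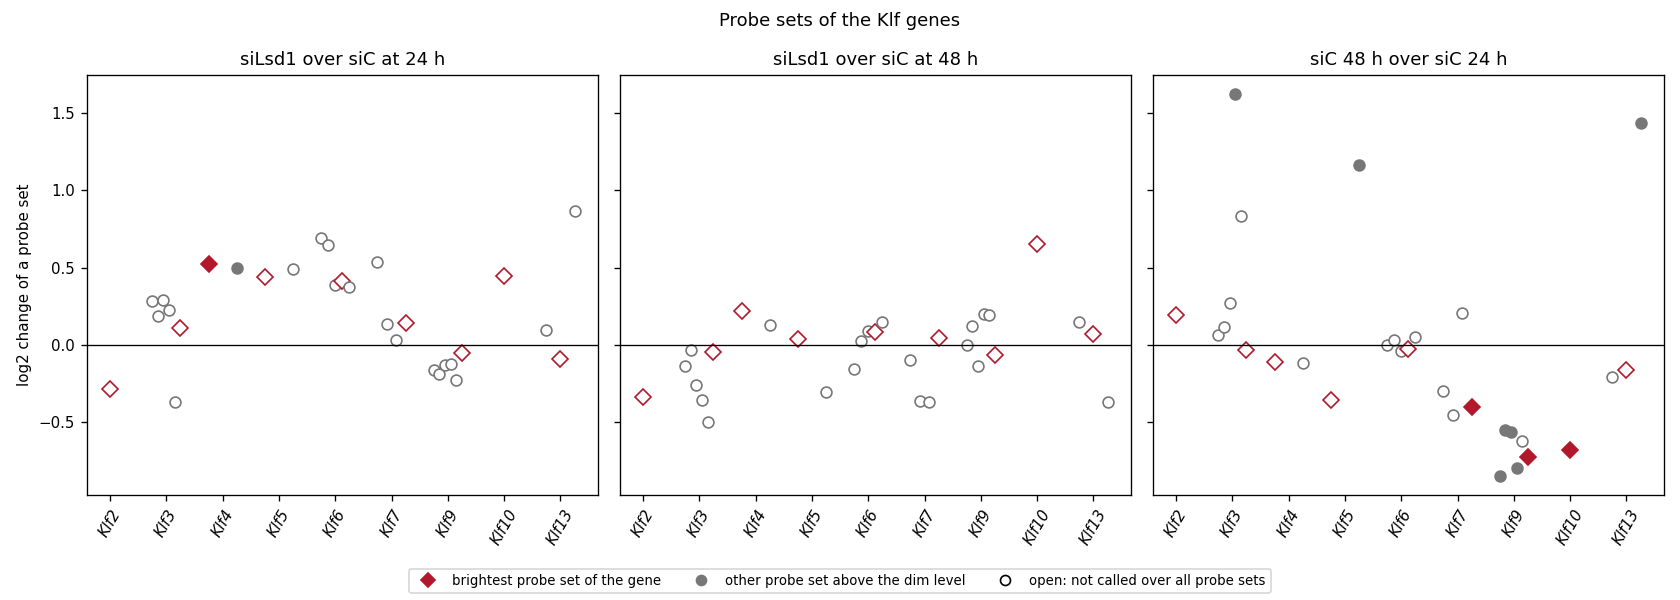
Log2 change of each member probe set above the dim level for siLsd1 over siC at 24 h, siLsd1 over siC at 48 h and siC at 48 h over siC at 24 h; red diamonds are the brightest probe set of a gene and filled symbols are called over all probe sets. Both Klf4 probe sets are filled at 24 h, and 5 of 6 Klf9 probe sets are filled and below 0 in the right panel, where 1 probe set each of Klf3, Klf5 and Klf13 is filled and above 0.

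The times were then compared within each siRNA. Time and passage cannot be told apart here, since the 48 h cells were of passage 21 and the 24 h cells of passage 19. In siC cells, 3 members were called by their brightest probe set and all were lower at 48 h, against 24.2% of all genes called and 12.2% called lower. The arrays of 4 members did not overlap and were lower at 48 h, against 26.9% of all genes, and 0 were higher, against 28.7%. Klf9, a glucocorticoid-responsive factor that favours differentiation, read 1345, 1357 and 1043 in siC at 48 h, against 2263 and 1863 in siC at 24 h. No arrays overlapped, and Klf9 fell by 0.73 on the log2 scale (SE 0.13, 1.66-fold, adjusted p = 0.00395). All 6 of its bright probe sets were lower at 48 h, by log2 changes of -0.85 to -0.55, and 5 were called where 13.0% of all probe sets were.

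Over all member probe sets above the dim level, 10 of 30 were called in siC cells between the times, 7 lower and 3 higher at 48 h. The 3 higher ones were not the brightest of their genes and lay between 7.49 and 65.9 units. The Klf3 one read 52.6, 65.9 and 38.3 in siC at 48 h, against 20.2 and 13.6 in siC at 24 h (log2 1.63, 3.08-fold, adjusted p = 0.00761). The Klf13 one rose by 1.44 (adjusted p = 0.0359) and the Klf5 one by 1.16 (adjusted p = 0.0339), and none of the 3 overlapped between the times. The brightest probe sets of these genes had changes of -0.03, -0.17 and -0.36 and were not called, so probe sets of 1 gene differed in direction here.

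Klf10 read 621, 694 and 724 in siC at 48 h, against 1051 and 1127 in siC at 24 h, and fell by 0.68 (SE 0.19, adjusted p = 0.0291). Klf7, known as an inhibitor of differentiation in human preadipocytes, read 233, 272 and 282 in siC at 48 h, against 353 and 340 in siC at 24 h. It fell by 0.41 (SE 0.11, adjusted p = 0.0234), and neither gene overlapped between the times. The 4 bright probe sets of Klf7 differed in direction, from -0.46 to 0.21, and 1 was called where 13.0% of all probe sets were. Without siC 24 h replicate 1 none of the 3 members was called (Klf9 -0.59, adjusted p = 0.0528). Without siC 24 h replicate 2, siC 48 h replicate 1 or siC 48 h replicate 2, the Klf9 call alone was left, and without siC 48 h replicate 3 the Klf10 call was lost. No share of all genes is given for these siC fits, so the losses alone do not set the Klf genes apart. Without siLsd1 48 h replicate 3 the same 3 members were called, where 40.4% of all genes were.

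In siLsd1 cells, 4 members were called, all lower at 48 h, against 14.4% of all genes called and 7.13% called lower. The arrays of 6 members did not overlap and were lower at 48 h, against 21.1% of all genes, and 0 were higher, against 22.0%. Klf9 read 1264, 1229 and 1066 in siLsd1 at 48 h, against 2006 and 1956 in siLsd1 at 24 h, and fell by 0.74 (SE 0.13, adjusted p = 0.00644). All 6 of its bright probe sets were lower at 48 h, but over a wide range of log2 changes, -0.74 to -0.20, and 3 were called. The other 3 called members were Klf7 (-0.51, adjusted p = 0.0145), Klf4 (-0.42, adjusted p = 0.0154) and Klf6 (-0.36, adjusted p = 0.0483). Of the member probe sets above the dim level, 8 of 30 were called, where 5.68% of all probe sets were. None of these 4 genes overlapped between the times. Klf10 did overlap, through replicate 3, and had a log2 change of -0.47 (adjusted p = 0.135). Without that array Klf10 fell by 0.72 (adjusted p = 4.58e-05) and Klf5 by 0.95 (adjusted p = 0.00620), and 6 members were called where 38.3% of all genes were. With all arrays, the other Klf5 probe set above the dim level had a change of 0.37, in the other direction, and was not called (adjusted p = 0.609). Leaving out either siLsd1 24 h array left 0 members called, and leaving out siLsd1 48 h replicate 2 left 1, Klf9. Klf6 also lost its call without any single siC array. For these fits no share of all genes is given, so the losses alone do not set the Klf genes apart.

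**Figure D4:**
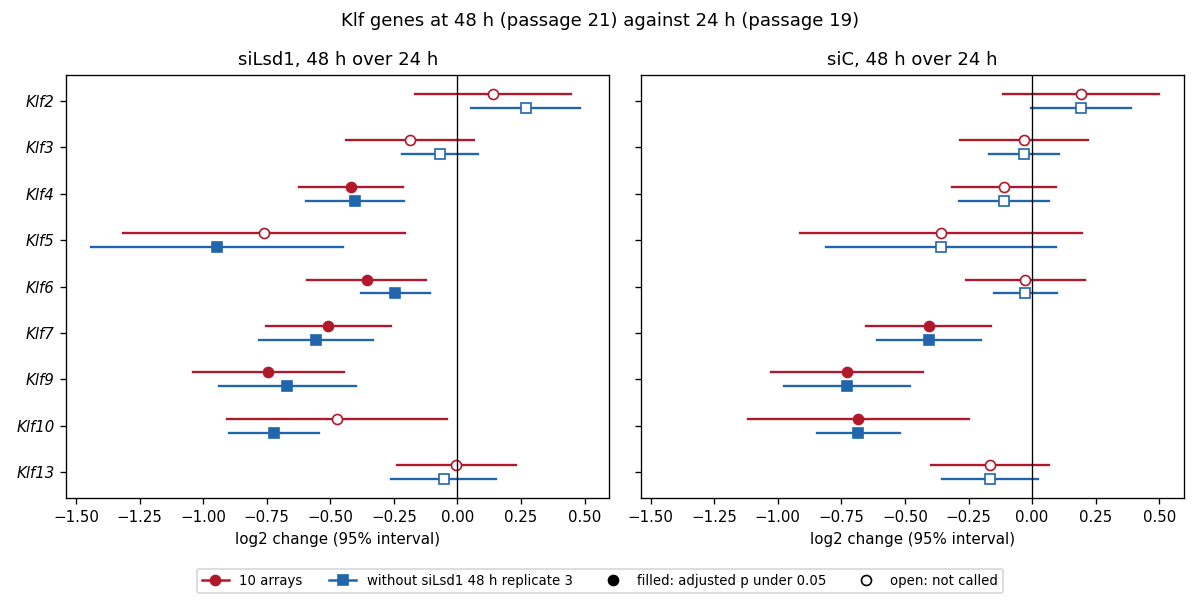
Log2 change of each tested Klf gene at 48 h (passage 21) against 24 h (passage 19) in siLsd1 cells (left) and siC cells (right), with 95% intervals; colours and fill are as in the plot of siLsd1 changes. By its brightest probe set, Klf9 lies at -0.74 in siLsd1 cells and -0.73 in siC cells.

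By the brightest probe set, Klf13 and Klf3 had the narrowest range of group means among the 9 tested members, though dimmer probe sets of both rose in siC cells between the times, as given above. The group means of Klf13 spanned 0.17 on the log2 scale and those of Klf3 spanned 0.19, against 1.13 for Klf10, 0.80 for Klf5 and 0.80 for Klf9. Klf13 lay between 396 and 486 on the 10 arrays and Klf3 between 1225 and 1683. Klf15, an activator of the glucose transporter gene Slc2a4 in adipocytes, was dim, with 1.38 to 15.8 units on the 10 arrays, and it was left out of the test.

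The genes whose profile over the 10 arrays was most like that of Klf10 were Mul1, Arpc5l and Snhg1, with root mean square differences of 0.05, 0.06 and 0.06 on the log2 scale after centring each gene. Klf10 itself deviated from its mean by 0.45. For Klf9 the nearest were Alcam, Igfbp7 and Abhd6 (0.11, 0.12 and 0.12), and for Klf5 they were Pdlim7, Bdnf and Myl9 (0.14, 0.16 and 0.16). These points share the arrays and their scaling.

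Among related genes, the 4 other Klf genes and 6 Sp factors that could be tested had 0 calls by limma at either time with siLsd1, and 1 Sp factor had an unadjusted p under 0.05, at 24 h. When siLsd1 48 h replicate 3 was left out, 1 of these Klf genes was lower at 24 h. Sp factors bind the same GC boxes. Sp4 had a log2 change of -0.51 at 24 h (adjusted p = 0.206) and Klf17 one of 0.79 at 48 h (adjusted p = 0.168). Beside the list counts that follow, 2.60% of all genes were called higher and 2.79% lower at 24 h, and 6.00% higher and 6.67% lower at 48 h. For the fit without siLsd1 48 h replicate 3, 10.1% of all genes were called higher and 15.3% lower at 24 h, and 8.16% higher and 9.96% lower at 48 h. Of 19 cofactors and modifiers of the Klf proteins, 1 was called higher at 24 h and 2 at 48 h, and 0 were lower. Leaving out siLsd1 48 h replicate 3 gave 3 higher and 2 lower at 24 h and 3 higher at 48 h. Sap30, a subunit of the Sin3 corepressor, read 337, 281 and 442 with siLsd1 at 48 h, against 157, 155 and 166 with siC at 48 h, and rose 2.17-fold (adjusted p = 0.00263).

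The MEK5, ERK5 and MEF2 route is known in endothelial cells to act upstream of Klf2 and Klf4. The list made around it also holds genes that are not upstream activators, Thbd and Ccm2 among them. Its 14 tested genes had 4 calls higher and 0 lower at 24 h, and 2 higher and 1 lower at 48 h. Their median log2 change was 0.24 at 24 h and 0.10 at 48 h, against -0.02 over all genes at each time. Mapk7, which encodes ERK5, read 278 and 274 with siLsd1 at 24 h, against 185 and 190 with siC at 24 h, and rose 1.47-fold (adjusted p = 0.0337). Thbd, the thrombomodulin gene, rose 1.53-fold at 24 h (adjusted p = 0.0312). At 48 h neither Mapk7 (log2 0.16, adjusted p = 0.330) nor Thbd (log2 0.34, adjusted p = 0.0690) was called. Ccm2, of the cerebral cavernous malformation complex, rose 1.55-fold at 24 h (adjusted p = 0.00986) and 1.31-fold at 48 h (adjusted p = 0.0219). Leaving out siLsd1 48 h replicate 3 gave 5 higher and 0 lower in this list at 24 h. It gave 3 higher and 1 lower at 48 h.

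Klf4, Klf6 and Klf10 are also induced early by serum. Of 26 serum response and immediate early genes, 9 were called higher and 0 lower at 24 h, and 5 higher and 1 lower at 48 h. Their median was 0.41 at 24 h and -0.01 at 48 h. Atf3, a stress-induced repressor, read 739 and 726 with siLsd1 at 24 h, against 214 and 232 with siC at 24 h, and rose 3.29-fold (adjusted p = 0.0112). Dusp1, a phosphatase of MAP kinases, rose 2.40-fold at 24 h (adjusted p = 0.0259). Without siLsd1 48 h replicate 3, the counts were 17 higher and 3 lower at 24 h, where 10.1% of all genes were higher and 15.3% lower, and 6 higher and 2 lower at 48 h.

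Of 34 genes reported as targets of Klf proteins, 5 were called higher and 2 lower at 24 h, and 5 higher and 0 lower at 48 h. Il6, a cytokine gene, read 1553 and 1466 with siLsd1 at 24 h, against 345 and 352 with siC at 24 h, and rose 4.33-fold (adjusted p = 0.0330). The chemokine gene Ccl5 rose 4.82-fold at 24 h (adjusted p = 0.00670), and the water channel gene Aqp1 fell by 1.33 on the log2 scale (adjusted p = 0.00224). Their median log2 change was 0.07 at 24 h and -0.02 at 48 h. The counts without siLsd1 48 h replicate 3 were 6 higher and 7 lower at 24 h, where 25.5% of all genes were called, and 9 higher and 5 lower at 48 h, where 18.1% were.

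Of 27 adipogenic regulators around the Klf genes, 0 were called higher and 1 lower at 24 h, and 2 higher and 3 lower at 48 h. Zfp423, a preadipocyte commitment factor, fell by 0.60 at 24 h (adjusted p = 0.0319). Cebpb, reported as a target of Klf4, read 3568, 3553 and 4634 with siLsd1 at 48 h, against 2500, 2923 and 3003 with siC at 48 h. It rose 1.39-fold (adjusted p = 0.0263), while at 24 h its change of 0.42 was not called (adjusted p = 0.102). Ddit3, which inhibits C/EBP factors, rose 1.41-fold at 48 h (adjusted p = 0.0139). With siLsd1 48 h replicate 3 left out, 3 were higher and 9 lower at 24 h, against 25.5% of all genes called, and 4 higher and 10 lower at 48 h, against 18.1%.

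Klf9 and Klf10 are known to be tied to the clock, and Klf9 to glucocorticoids. Of 21 clock genes, 1 was called higher and 0 lower at 24 h, and 5 higher and 0 lower at 48 h. Clock rose 1.78-fold at 24 h (adjusted p = 0.00440) and 1.38-fold at 48 h (adjusted p = 0.0130). Nfil3, a repressor of the clock output, rose 1.78-fold at 48 h (adjusted p = 0.00922). Of 18 glucocorticoid-responsive genes, 1 was called higher and 0 lower at 24 h, and 1 higher and 5 lower at 48 h. Sult1a1, a sulfotransferase gene, read 45.2, 51.2 and 21.7 with siLsd1 at 48 h, against 138, 131 and 113 with siC at 48 h (3.44-fold lower, adjusted p = 0.00905). The 1 called higher at 24 h was Dusp1 (2.40-fold, adjusted p = 0.0259), and that at 48 h was Ddit4 (1.86-fold, adjusted p = 0.0161). The glucocorticoid counts without siLsd1 48 h replicate 3 were 3 higher and 5 lower at 24 h, and 5 higher and 6 lower at 48 h, and those of clock genes were 3 higher and 2 lower at 24 h and 5 higher and 0 lower at 48 h. In that fit 25.5% of all genes were called at 24 h and 18.1% at 48 h.

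Among cell type markers, 1 of 5 tested markers of mature adipocytes was called lower at 24 h and 2 at 48 h, and 3 of 13 tested preadipocyte and fibroblast markers at 24 h and 2 at 48 h. Leaving out siLsd1 48 h replicate 3 made the adipocyte counts 2 and 2 and the preadipocyte counts 7 and 4. At each time limma called 0 of the 7 macrophage, 2 endothelial and 2 epithelial markers tested, and 0 had an unadjusted p under 0.05. With that array left out, 1 macrophage marker was higher and 1 lower at 24 h. The summed intensity of the 8 adipocyte markers on the array, 5 of them above the dim level, was 1710 to 1993 with siLsd1 at 24 h, against 3933 to 4036 with siC at 24 h, and 2049 to 3779 with siLsd1 at 48 h, against 5669 to 6392 with siC at 48 h. Cidec, Lep and Retn were dim. Most of the adipocyte sum was Fabp4, with siLsd1 means of 1467 at 24 h and 2387 at 48 h, against 3540 and 5059 with siC. Plin4 and Adipoq also had lower means with siLsd1 at both times. Slc2a4 had a higher mean with siLsd1 at 24 h alone (60.8 against 49.1), and Lipe at 48 h alone (54.8 against 49.4). Preadipocyte and fibroblast markers, 13 of 14 above the dim level and Cd34 dim, summed to 65851 to 65888 with siLsd1 at 24 h, against 74039 to 76653 with siC at 24 h, and to 55575 to 71795 with siLsd1 at 48 h, against 76734 to 78217 with siC at 48 h. The macrophage markers summed to 934 to 1024 with siLsd1 at 24 h, against 960 to 971 with siC at 24 h, and the sums of these, of endothelial and of epithelial markers overlapped between siLsd1 and siC at both times. Of 8 macrophage markers 7 were above the dim level, but Ptprc was dim, and 6 of 8 endothelial and 5 of 7 epithelial markers were dim. The part of these shifts in the Klf results was not tested, and in bulk RNA fewer cells of a type and less RNA per cell cannot be told apart.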

How the data were processed

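The authors deposited 1 linear intensity for each probe set and array. The sources used here do not give their summarisation or normalization, and 0 columns were unmapped. Per the labels, biotin-labelled cRNA from total RNA was hybridised to Affymetrix arrays. Intensities were put on the log2 scale with no pseudocount. Of 45037 probe sets, 34945 had 1 gene symbol, 932 several and 9160 none. The probe set with the highest mean log2 intensity stood for each of 18193 genes, and the 25% of genes with the lowest mean (up to 18.4 units) were left out, which left 13644.

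A mean for each of 4 groups was fitted to 10 arrays by limma 3.58.1 (R 4.3.3; lmFit, eBayes with an intensity trend). The fit had 6 residual degrees of freedom and gave 6 comparisons, each adjusted by Benjamini-Hochberg. A second fit used all probe sets without a filter. The fit was tested on simulated data.

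All members and Kdm1a are named whatever their values. From each gene list up to 3 called genes with the largest change and no overlap of arrays are named. Where a list had no call, the 2 smallest p-values decide. The 3 nearest profiles are named for the 3 members with the widest range. The members and lists were chosen with earlier results of these data known. The lists and roles come from general knowledge.

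Same-numbered arrays did not deviate together (r = -0.24 at 24 h and -0.23, 0.05 and -0.10 at 48 h), so replicate numbers were not used as pairs. Alternatives were other probe set rules, filters and scalings, array weights, no intensity trend, each time alone, replicate blocks, and each array left out in turn. Figures were drawn with matplotlib 3.10.9.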

Additional observations from a re-analysis of the deposited data

How the results depend on the processing

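Across 24 alternatives, 1059 of 1227 member changes kept their direction and side of the threshold, 89 lost the call, 20 gained it and 59 changed sign, of which 0 were called in the report or under the alternative. Members called at 24 h numbered 1 in the report, 2 with arrays centred on the median, 4 with array weights, 3 with the time fitted alone, and 0 without the intensity trend. Leaving out single arrays gave 0 to 3. At 48 h the 1 call became 2 with median centring, 4 with array weights, and 0 with the mean of probe sets, with all probe sets, without the trend or with the time alone, and 0 to 2 without single arrays. Averaged over the times, the 4 calls became 2 with the mean of probe sets, with all probe sets or without the trend, and 1 to 4 without single arrays. In siLsd1 over time the 4 calls became 2 with the mean of probe sets, 7 with array weights and 1 with those arrays alone, and 0 to 6 without single arrays. In siC over time the 3 calls ranged from 0 to 3 without single arrays. Calls over all genes are given here only for the 24 h counts of the report, median centring and array weights. None stand beside the remaining counts, which alone do not show a stronger or weaker Klf result. The rise with array weights alone does not show a stronger one either. The cause of these moves was not tested.

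With the replicate number as a block, 0 members were called at 24 h, where 1.09% of all genes were, and 2 averaged over the times. The crossed pairing of the 24 h numbers, chosen after seeing the data, gave 0 and 2, and called 1.22% of all genes at 24 h. No share of all genes is given for the mean of both times, so its count alone does not show a weaker Klf result.

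Kdm1a kept its sign throughout. Its 24 h change of -0.69 was no longer called with all probe sets, no dim filter, no trend, or the blocks by number, by sample code (-0.69) or crossed, and ran from -0.72 to -0.66 without single arrays. Its 48 h change of -0.55 was no longer called with all probe sets, no trend, the time alone or the number block, and ran from -0.65 to -0.35 without single arrays. Centring arrays on the median moved all changes of siC over time by -0.14.

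The changes whose sign differed from the report were these, on the log2 scale. The mean of probe sets gave Klf13 0.29 for siLsd1 at 24 h, Klf5 -0.24, Klf7 -0.20, Klf13 -0.052 for siLsd1 at 48 h and Klf3 -0.047, Klf13 0.12 for the mean of both times. It also gave Klf9 0.077, Klf13 -0.34 for the difference between the times, Klf3 0.54, Klf5 0.22, Klf6 0.0030, Klf13 0.35 for siC over time and Klf3 0.068, Klf13 0.012 for siLsd1 over time. Quantile normalization gave Klf13 0.046 for the mean of both times, Klf9 0.015 for the difference between the times and Klf3 0.0097, Klf6 0.014 for siC over time. It also gave Klf13 0.00029 for siLsd1 over time. Median centring gave Klf3 0.013 for siLsd1 at 48 h, Klf13 0.017 for the mean of both times and Klf2 0.0070, Klf9 0.045 for the difference between the times. Array weights gave Klf3 0.043, Klf5 -0.18, Klf7 -0.054, Klf13 -0.035 for siLsd1 at 48 h and Klf2 0.042, Klf10 -0.054 for the difference between the times. Averaging siLsd1 48 h replicates 1 and 2 gave Klf13 0.00072 for the mean of both times and Klf13 0.020 for siLsd1 over time. Without single arrays the changes ran over Klf9 -0.19 to 0.089, Klf13 -0.20 to 0.012 for siLsd1 at 24 h and Klf7 -0.041 to 0.098, Klf5 -0.15 to 0.25, Klf3 -0.11 to 0.072, Klf9 -0.19 to 0.0077 for siLsd1 at 48 h. They ran over Klf9 -0.13 to 0.011, Klf13 -0.064 to 0.040, Klf3 -0.0022 to 0.091 for the mean of both times and Klf2 -0.16 to 0.075, Klf9 -0.16 to 0.12, Klf10 -0.038 to 0.35 for the difference between the times. They ran over Klf3 -0.082 to 0.020, Klf6 -0.070 to 0.0082 for siC over time and Klf13 -0.11 to 0.098 for siLsd1 over time.

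With 2 or 3 arrays a group, small changes were not resolved, and a call that misses the threshold does not show that a gene did not change.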
